A study of Caenorhabditis elegans with 4 samples.

Results

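The ZFP-1 peaks described here lie in the centre of chromosome II of Caenorhabditis elegans. They were chosen by position alone, as the peaks of the series list on II whose midpoint fell from 4880000 to below 12020000 on the WS220 build. This rule gave 1274 of the 13878 peaks in that list. The same window held 292 of the 3559 peaks of ChIP replicate 1 and 532 of the 6371 peaks of ChIP replicate 2. Each of these lists gives every peak a start, an end and a score set by the authors.

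The chromatin came from whole L3 larvae of the wild-type N2 strain at 20 degrees Celsius, in a culture holding hermaphrodites as well as males. The 4 samples were 2 ZFP-1 immunoprecipitates and 2 input DNA samples. Rabbit polyclonal antibody, affinity purified, was used for the immunoprecipitation. Whole animals were used, so a peak cannot be assigned to a tissue or cell type, and a site bound weakly in all cells cannot be told apart from one bound strongly in few. The labels do not state whether the replicates were grown separately. No input peak list was analysed here, so the input background at the peaks is unknown, and so is the sequencing depth.

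ZFP-1 is a chromatin protein with PHD zinc fingers, the nematode relative of human AF10. It acts with the histone H3 lysine 79 methyltransferase DOT-1.1 and is known for binding promoters of actively transcribed genes and for modulating transcription there. Each C. elegans autosome has a central domain of low recombination, which is rich in genes, and a pair of arms with high recombination, more repeats and more H3K9 methylation. The rule takes its window from that domain on II. Members are named by position, since no gene annotation on WS220 was used here.

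The centre of II was densely covered with ZFP-1 peaks. Its 7.14 Mb make up 46.8% of chromosome II, measured to the last base covered by any peak, and carried 64.0% of the peaks that the series list has on II. The share was 61.2% in replicate 1 and 59.2% in replicate 2. Density in the series list was 178 peaks per Mb (exact Poisson 95% interval 169 to 189), against 88.0 (81.7 to 94.7) on the 8.13 Mb of arms. The ratio of centre to arms was 2.03, with an exact conditional binomial interval of 1.85 to 2.22.

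Both replicates showed the same direction. Replicate 1 had 40.9 peaks per Mb in the centre and 22.7 on the arms, a ratio of 1.80 (1.49 to 2.17). Replicate 2 had 74.5 and 45.1, a ratio of 1.65 (1.44 to 1.89). The replicate mean was 57.7 ± 23.8 peaks per Mb for the centre and 33.9 ± 15.8 for the arms (SD, n = 2). Within the libraries the centre exceeded the arms by 18.1 peaks per Mb in replicate 1 and by 29.4 in replicate 2, a mean difference of 23.8 ± 7.94 (SD, n = 2). An exact paired permutation test over the 2 libraries, two-sided, gave p = 0.5, the smallest p that this number of libraries allows. Series-list peaks covered 7.80% of the centre and 3.47% of the arms. For replicate 1 these shares were 7.73% and 3.51%, and for replicate 2 they were 13.9% and 6.51%. These intervals cover counting error only and treat neighbouring peaks as independent.

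The arms of II were not alike. The left arm had 74.0 series-list peaks per Mb and the right arm 109, so the centre exceeded the left arm 2.41-fold (2.14 to 2.72) and the right arm 1.63-fold (1.45 to 1.84). In replicate 1 these ratios were 2.06 and 1.51, and in replicate 2 they were 1.93 and 1.35. In each list, the left arm was the sparsest and the centre the densest of the 3 segments.

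When the window was scaled to the length of the other 4 autosomes, each of their centres was also denser than its arms. The series-list ratio was 1.56 (1.43 to 1.70) on I, 1.42 (1.30 to 1.56) on III, 2.02 (1.84 to 2.22) on IV and 1.88 (1.72 to 2.06) on V. The ratio on II was thus close to those on IV and V, and its interval lay above those of I and III. The central density itself, 178 peaks per Mb on II, matched that of III (178) and I (174) within their intervals, while the arms of II, at 88.0, were sparser than those of III (125) and I (112). With these windows, the series-list densities of II and III were thus close in the centre and differed on the arms. The scaled windows take the proportions of II and not the borders of each chromosome's own low-recombination domain. The comparisons between chromosomes depend on that placement, and other borders were not tried. In replicate 2 the interval on II, 1.44 to 1.89, lay above that of III (1.06 to 1.37) but overlapped that of I (1.17 to 1.51), and in replicate 1 it overlapped all the others.

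**Figure D1:**
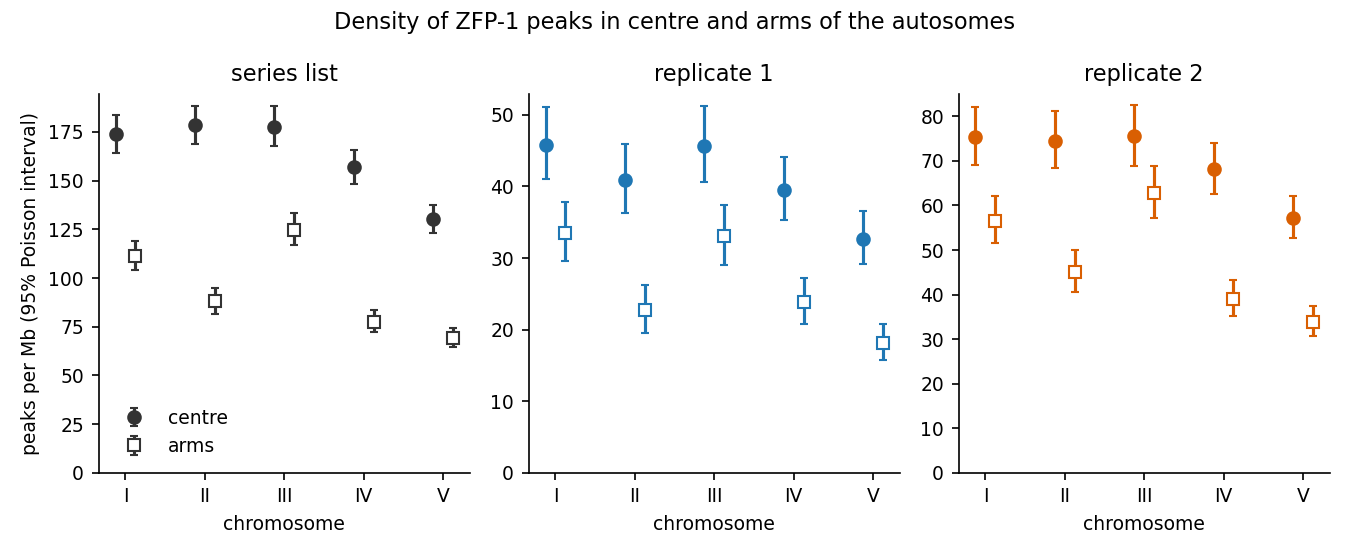
Peaks per Mb in the centre (filled circles) and arms (open squares) of the autosomes in each list, with exact Poisson 95% intervals. On the other autosomes the window of II was scaled to the chromosome length. The y axes start at 0 and differ in range. On II the series list had 178 peaks per Mb in the centre and 88.0 on the arms, and the centre was above the arms in each panel.

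At both edges of the window each list counted more peaks inside than outside. These differences were not tested, and 1 flank per side does not place a drop at the border itself. In the 490 kb inside the left edge there were 107 series-list peaks and in the 490 kb outside it 61. Inside the right edge there were 77 and outside it 43. Replicate 1 counted 28 inside and 19 outside on the left, and 15 and 9 on the right. Replicate 2 counted 44 and 36 on the left, and 34 and 20 on the right. The member nearest to the left edge ran from 4881718 to 4882215 with a score of 30.9 and met both replicates, and the nearest peak beyond that edge ran from 4866181 to 4866366 with a score of 2.03. The last member before the right edge ran from 11979681 to 11979951 with a score of 4.70, and the first peak after it from 12039951 to 12040563 with a score of 117.

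A typical member was narrow. Member widths had a median of 320.5 bp (interquartile range 225 to 488.5 bp) and ran from 146 to 6862 bp. Widths on the arms were similar, with a median of 306 bp. Replicate peaks were broader, with medians of 1361 bp in replicate 1 and 1257.5 bp in replicate 2 in the centre, against 1218 and 1094 bp on the arms. Series scores of members ran from 1.33 to 222, with a median of 14.9 (6.89 to 39.9). Score and width moved together across the 1274 members (Pearson r = 0.75 on log10 values, Spearman rho = 0.76), which is a description of peaks from 1 list.

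Peaks in the centre scored lower than peaks on the arms. The median series score was 14.9 in the centre and 21.3 on the arms, and the medians were 180.5 and 214 in replicate 1, and 280 and 322 in replicate 2. Scores are compared within 1 list only, since their scale is not stated. The order was the same in all 3 lists, but interquartile ranges overlapped widely (6.89 to 39.9 against 9.10 to 64.4 in the series list), and the difference was not tested.

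Among the best-scoring 10% of the whole series list were 96 members, or 7.54% (exact Clopper-Pearson interval 6.15 to 9.12%), against 10% of all peaks and 13.3% (10.9 to 16.0%) on the arms. Per Mb, such peaks numbered 13.4 in the centre and 11.7 on the arms, a ratio of 1.15 (0.86 to 1.54). For the lowest-scoring 20% of the list the ratio was 3.09 (2.46 to 3.90), and for the best-scoring 20% it was 1.37 (1.12 to 1.69). In the series list, then, the density difference between centre and arms was greatest for low-scoring peaks and was not detectable for the best 10%.

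In replicate 1 the intervals were too wide to say whether such a gradient was present, and in replicate 2 whether a smaller one was. Of the best-scoring 10% of replicate 1, 27 peaks lay in the centre (9.25% of its peaks there, against 10% overall) and 15 on the arms, a density ratio of 2.05 (1.05 to 4.15). Replicate 2 had 49 (9.21%, against 10% overall) and 27, a ratio of 2.07 (1.27 to 3.44). In the best-scoring 20% the ratios were 1.69 (1.10 to 2.64) in replicate 1 and 1.61 (1.16 to 2.25) in replicate 2. In the lowest-scoring 20% they were 2.28 (1.47 to 3.60) in replicate 1 and 1.53 (1.14 to 2.06) in replicate 2. For that class the replicate 2 interval lay wholly below that of the series list (2.46 to 3.90), and the replicate 1 interval overlapped it. Scores tied at or lying above 3100 were reached by 11 centre peaks of replicate 1 and 38 of replicate 2, so the top of these lists is poorly ranked. Over classes of 20% from best to lowest, the ratios were 1.69, 1.47, 1.68, 1.96 and 2.28 in replicate 1, and 1.61, 1.47, 1.60, 2.07 and 1.53 in replicate 2. All intervals overlapped from class to class within a replicate.

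**Figure D2:**
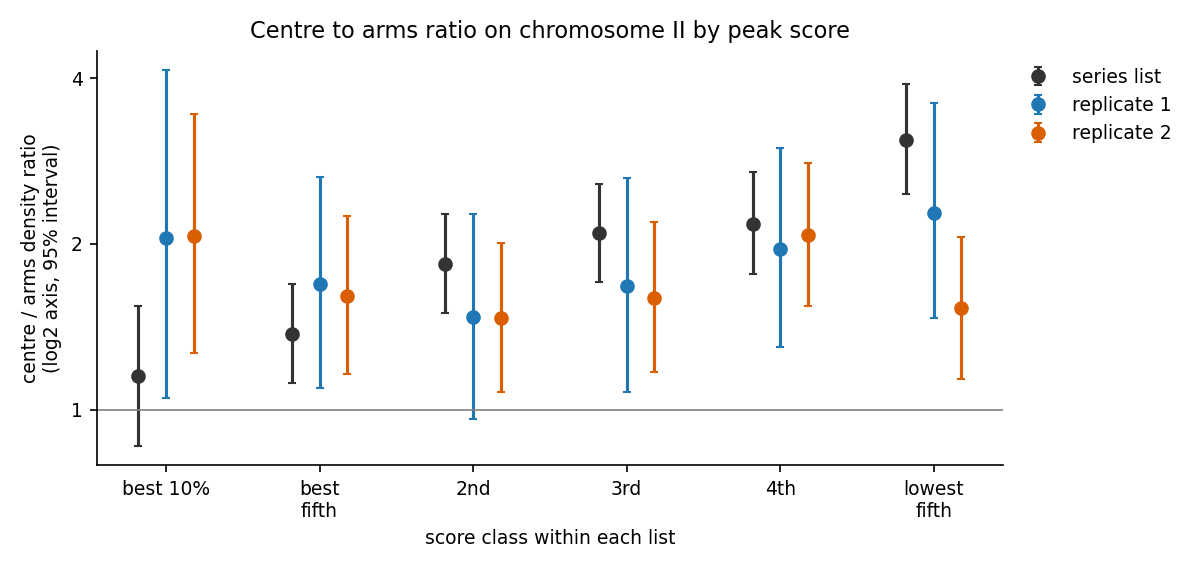
Ratio of peak density in the centre to that on the arms of II, by score class within each list, on a log2 axis with exact conditional 95% intervals. In the series list (dark points) the ratio went from 1.15 for the best 10% to 3.09 for the lowest 20%, while both replicates stood near 2.05 for their best 10%.

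Replicate peaks held several narrow series-list peaks more often in the centre than on the arms. Of the replicate 1 peaks in the centre, 122 of 292, or 41.8% (36.1 to 47.7%), held 2 or more series-list peaks, against 33.8% over the whole replicate 1 list and 22.7% (16.9 to 29.4%) on the arms. For replicate 2 the share was 37.6% (33.5 to 41.9%, 200 of 532), against 32.3% over its whole list and 20.2% (16.2 to 24.6%) on the arms. Thus in both replicates the interval of the centre lay above that of the arms. When series-list peaks less than 2 kb apart were merged, the 1274 members became 550 units. The best score of such a unit had a median of 29.8 in the centre (550 units) and 30.1 on the arms (412 units), so the medians were close after merging, while the upper quartile was still lower in the centre (70.3 against 90.5). A unit held a mean of 2.32 peaks in the centre and 1.74 on the arms, and the best of more peaks tends to be higher by itself. Taken per replicate peak, the best series score beneath it was still lower in the centre, with medians of 78.3 against 106 for replicate 1 peaks and 37.3 against 50.8 for replicate 2 peaks.

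Support in the replicates was close to that of the list as a whole. Of the 1274 members, 472 met a peak in both replicates by at least 1 bp, which is 37.0% (34.4 to 39.8%) against 38.4% of all series-list peaks. A further 466, or 36.6%, met replicate 2 alone, and 14, or 1.10%, met replicate 1 alone. The remaining 322 met neither, which is 25.3% (22.9 to 27.8%) against 25.3% of all series-list peaks. On the arms of II 33.9% (30.5 to 37.5%) met both and 30.2% (26.8 to 33.7%) met neither. The series list comes from a series with only these ChIP libraries, so the shares describe agreement between lists and are not independent evidence for a site.

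Members met in both replicates were the highest and the widest. Their median score was 46.2 (14.1 to 103) and their median width 530.5 bp. Members met in replicate 2 alone had medians of 16.3 and 317 bp, and members met in neither had medians of 6.71 and 205 bp. On the arms, peaks met in both had a higher median score, 88.05 (37.1 to 142), at a similar width of 518 bp. By density, members met in both exceeded the arms 2.21-fold (1.89 to 2.59), those met in replicate 2 alone 2.15-fold (1.84 to 2.52) and those met in neither 1.70-fold (1.42 to 2.03).

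Support rose with the score of the member. Of the best-scoring 20% of members, with scores from 54.3 to 222, 86.6% (81.8 to 90.5%) met both replicates and 0 of 254 met neither. In the next 20%, with scores from 21.05 to 54.1, 41.6% met both. Below a score of 21 the share levelled off at 20% in the middle class, 19.2% in the next and 18.0% (13.5 to 23.3%) in the lowest, while the share met in neither went on rising, from 25.9% to 43.9% and 52.5%. All 46 members of the lowest class that met both replicates lay in a replicate peak that held at least 1 other series-list peak. The strongest member met in neither replicate ran from 7884742 to 7885131 with a score of 38.1, at the left end of a cluster of 12 members.

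**Figure D3:**
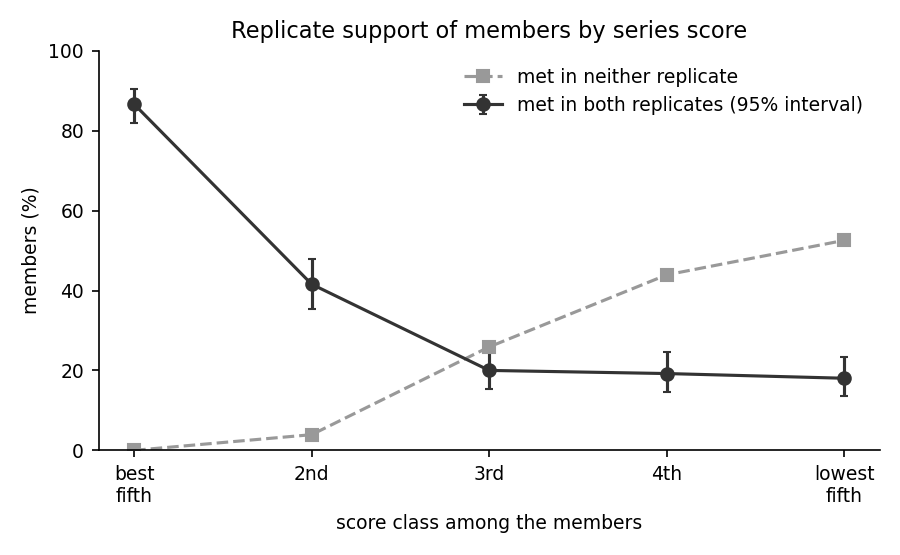
Share of members met in both replicates (circles, exact 95% interval) and in neither (squares), in classes of 20% of the members by series score. The share met in both fell from 86.6% in the best class to 18.0% in the lowest, and the share met in neither rose from 0% to 52.5%.

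Seen from the replicates, 283 of the 292 replicate 1 peaks in the centre, or 96.9% (94.2 to 98.6%), met a replicate 2 peak. In the other direction 255 of 532, or 47.9% (43.6 to 52.3%), did. Over the whole lists these shares were close, at 97.8% and 50.4%. Replicate 2 peaks with a counterpart had a median score of 940, and those without one had 136. All 292 replicate 1 peaks and 531 of the 532 replicate 2 peaks met a series-list peak, against 99.7% and 99.8% of the whole lists. Over 251 pairs of centre peaks, each the best overlap of its partner, log10 scores of the replicates correlated with r = 0.74 and rho = 0.79, across peaks that share their libraries.

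The 10 highest-scoring members met in both replicates scored from 180 to 222 and were 673 to 5323 bp wide. The first of them ran from 8484307 to 8484979 with a series score of 222, and lay under a replicate 1 peak of score 1228 and a replicate 2 peak of score 3100. It ranked 12 in the whole series list and 4 on chromosome II. The second ran from 9112529 to 9113585 with a score of 208, under replicate peaks of 1767 and 3100. The member from 6588567 to 6589824 scored 202, and its replicate peaks scored 1768 and 3030. Next came the member from 9273232 to 9274464 at 200.1, whose replicate 1 peak scored 897, the lowest of the 10, and whose replicate 2 peak scored 3116, the highest. The member from 6369794 to 6370711 scored 196 under replicate peaks of 2417 and 3100.

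The other 5 were the members from 9486999 to 9488015 (series score 189), 6825191 to 6830513 (184), 10551099 to 10552989 (182), 7151351 to 7152651 (182) and 7363683 to 7364479 (180). All 10 lay within 2 kb of another member. The replicate 1 peak above them was among the best-scoring 10% of its list in 5 cases, and the replicate 2 peak in 7. Of the 20 highest-scoring peaks on II that met both replicates, 5 were in the centre and the others on the arms. Of all peaks on II that met both, 472 were in the centre and 243 on the arms, and the centre held 64.0% of the series-list peaks on II.

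Local density was uneven along the centre. In 102 bins of 70 kb, member counts ran from 2 to 35 with a median of 12 (interquartile range 8 to 16), and no bin was empty. The variance was 2.97 times the mean, a quotient that equals 1 on average for points placed independently at a constant rate. In replicate 1 bins held 0 to 12 peaks with a median of 3, and 5 bins were empty. In replicate 2 they held 1 to 14 with a median of 5. The 10 fullest bins, 9.80% of the window, held 19.5% of the members. The count in a bin did not follow that of its neighbour (r = -0.02 over 101 adjoining bins), so full bins stood singly or in short runs.

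The unevenness was lower once clustered peaks were merged. After merging peaks less than 2 kb apart, bins held 2 to 10 units with a median of 5, and the variance was 0.57 times the mean. Merging sets a smallest distance between units, which by itself lowers this quotient. Counts of units thus spread less over the bins than counts of peaks, in part through merging itself. The number of peaks per unit was not compared between bins. Bin counts of the replicates correlated with r = 0.64 and rho = 0.64, and covered bases per bin with r = 0.88 and rho = 0.81. Without the 5 fullest bins, r for the counts was 0.58. These correlations are across 102 positions in the same pair of libraries.

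**Figure D4:**
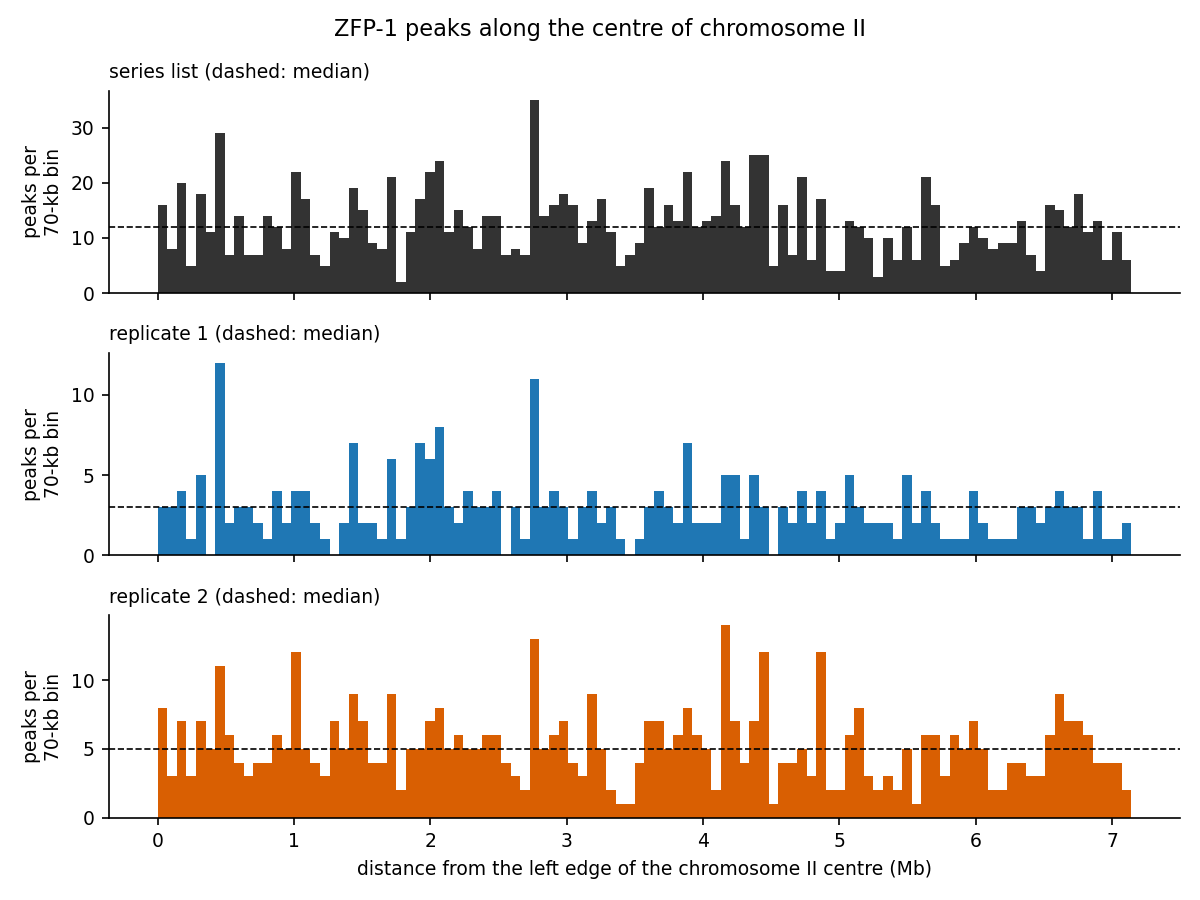
Peaks per 70-kb bin along the centre of II in each of the 3 lists, against distance from its left edge; bars are counts, dashed lines the medians (12 in the series list, 3 and 5 in the replicates), and the y axes start at 0. The fullest series-list bin, with 35 members, begins 2730 kb from the left edge and ranks second in both replicates.

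The fullest bin ran from 7610000 to 7679999 and held 35 members, with 11 peaks in replicate 1 and 13 in replicate 2, each the second-highest count of that replicate. Of its members 22 met both replicates, they covered 20170 bp, and merging left 8 units. The bin from 5300000 to 5369999 held 29 members, of which 21 met both, in 6 units. It had 12 replicate 1 peaks, the highest count, and 11 replicate 2 peaks. The adjoining bins from 9220000 to 9289999 and from 9290000 to 9359999 each held 25 members, yet only 5 and 9 of these met both replicates, with 5 and 3 replicate 1 peaks against 7 and 12 replicate 2 peaks. The bin from 6910000 to 6979999 held 24 members, 16 of them met in both. Another bin, from 9010000 to 9079999, also held 24, of which 9 met both, and it had the highest replicate 2 count, 14 peaks.

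The fullest bins did not hold better-scoring peaks. Their median member scores were 11.1, 19.8, 11.0, 16.3, 18.5 and 9.17 in that order, around the median of 14.9 for all members. Over all bins the count and the median score were at most weakly related (r = -0.20, rho = -0.05). The emptiest bin, from 6630000 to 6699999, held 2 members, one of which met both replicates and scored 110. The bin from 10130000 to 10199999 held 3, and those from 9780000 to 9849999, from 9850000 to 9919999 and from 11320000 to 11389999 held 4 each. Each of these 5 bins had 1 or 2 peaks in replicate 1 and 2 or 3 in replicate 2, and each held at least 1 member met in both. They were not the emptiest bins of the replicates. The 5 bins without a replicate 1 peak were others, with 5 to 11 members, and the lowest replicate 2 count, 1 peak, was also found elsewhere.

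On a coarser scale the right end of the centre was sparser. In 7 stretches of 1.02 Mb from left to right, the series list held 191, 182, 215, 185, 199, 151 and 151 members. The stretch from 6920000 to 7939999 was the densest, at 211 per Mb (184 to 241), and the last 2 stretches, from 9980000 onwards, had 148 per Mb each (125 to 174), an interval that overlapped those of all other stretches but the densest. Replicate 1 counts were 47, 46, 53, 38, 41, 35 and 32, and replicate 2 counts were 84, 81, 83, 71, 82, 66 and 65. In both replicates the last 2 stretches were the lowest. The share of members met in both ran from 31.8% in the last stretch to 42.3% in the one next to the first, with no steady trend.

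Most members stood close to another. The median distance to the nearest series-list peak was 598.5 bp (262 to 1629.5 bp) in the centre and 1267 bp on the arms, and 65.3% of members had a neighbour within 1 kb, against 43.0% on the arms. Clusters of peaks less than 2 kb apart took in 998 members, or 78.3%, against 72.5% of all series-list peaks and 63.3% on the arms. They formed 274 clusters, and 276 members stood alone. A higher density by itself brings peaks closer together, so these values restate in part the density given above.

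Large clusters had more support than single members. The 52 clusters of 5 or more held 406 members, of which 54.4% (49.4 to 59.4%) met both replicates, against 33.3% (29.5 to 37.2%) in clusters of 2 to 4 and 19.6% (15.1 to 24.7%) of single members. Replicate 2 had a peak at all 52 of these clusters and replicate 1 at 47, while of the 276 single members 144 met replicate 2 and 55 met replicate 1. Median scores of the members hardly differed between these sizes, at 16.0, 13.1 and 16.6. The best score of a cluster had a median of 125 in those of 5 or more and 44.5 in those of 2 to 4. The best of more peaks tends to be higher by itself. Median widths of the large clusters, small clusters and single members were 7000.5, 2092.5 and 283 bp. A wider stretch is also more readily met by a replicate peak. A member in a large cluster can meet a wide replicate peak raised over its neighbour, so its support is not its own alone.

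Members met in both replicates lay near each other. Their median distance to the next series-list peak that met both was 303.5 bp, against 4123.5 bp for members met in replicate 2 alone and 8046 bp for those met in neither. Neighbours under the same replicate peaks are met together, so the overlap rule itself brings part of this closeness. On the arms the same classes had the same order, at 900, 8915 and 13594.5 bp. The nearest peak of any class lay at a median of 1530 bp from members met in neither. Isolated members, with no neighbour within 10 kb, numbered 35 (2.75%, against 10.8% on the arms), and a higher density by itself lowers this share. Of these 35, 7 met both replicates, against 13 of 77 isolated peaks on the arms and 37.0% of all members. The most isolated member, from 5142009 to 5142363, lay 36615 bp from its neighbour, scored 14.4 and met neither replicate.

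The largest cluster ran from 10542971 to 10560002 and held 17 members, 13 of them met in both replicates. Its best score was 182, its members covered 64.3% of its 17032 bp, and in both replicates a peak with a score of 3100 lay on it. The cluster from 6820331 to 6849725, the widest at 29395 bp, held 15 members, 13 met in both, that covered 84.5% of it. Clusters of 13 members lay from 6933042 to 6945535, with 9 met in both, and from 8637054 to 8647045, with 3 met in both. The cluster from 7628776 to 7643211, within the fullest bin, held 12 members, 7 of them met in both. The 3 other clusters of 12 members, which began at 7884742, 9273232 and 9480337, had 3, 4 and 4 met in both.

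Wide peaks were few but covered much of the occupied sequence. In the series list 72 members were 1 kb wide or more, 5.65% (4.45 to 7.06%) against 5.44% of all series-list peaks and 3.35% on the arms, and they made up 22.3% of the bases covered by members. All 72 met both replicates, and their median score was 118, against 13.6 for narrower members. Of the 18 series-list peaks that reached 4 kb anywhere in the genome, 4 were members, while members made up 9.18% of the whole list. The 2 widest of these lay under the same peak in each replicate, and the difference was not tested.

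In replicate 1, 21 centre peaks reached 4 kb (7.19%, 4.51 to 10.8%), against 5.34% of its whole list and 3.78% on the arms. In replicate 2, 36 did (6.77%, 4.78 to 9.25%), against 5.65% of its whole list and 2.45% on the arms. Of the 21 wide replicate 1 peaks, 18 (85.7%) overlapped a wide replicate 2 peak, and 17 of the 36 wide replicate 2 peaks (47.2%) overlapped a wide one of replicate 1. All 21 met some replicate 2 peak and 35 of the 36 met some replicate 1 peak.

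The widest region lay around 6.83 Mb. Replicate 2 listed it as 1 peak of 28826 bp, from 6820012 to 6848837, with a score of 853. Replicate 1 split it into 6 peaks that covered 94.6% of that length. Their scores ran from 76.4 to 3100, and the longest of them, from 6823978 to 6837641, was 13664 bp with a score of 2791. The rightmost, from 6841982 to 6848856, was 6875 bp with a score of 3100. The series list split it into 14 members covering 84.7%, including its 2 widest members, from 6830745 to 6837606 (6862 bp, score 109) and from 6825191 to 6830513 (5323 bp, score 184). Between these the uncovered stretch was short, and the weakest of the 14 scored 3.23. Coverage was thus nearly continuous in all 3 lists, with the lists placing the breaks differently.

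**Figure D5:**
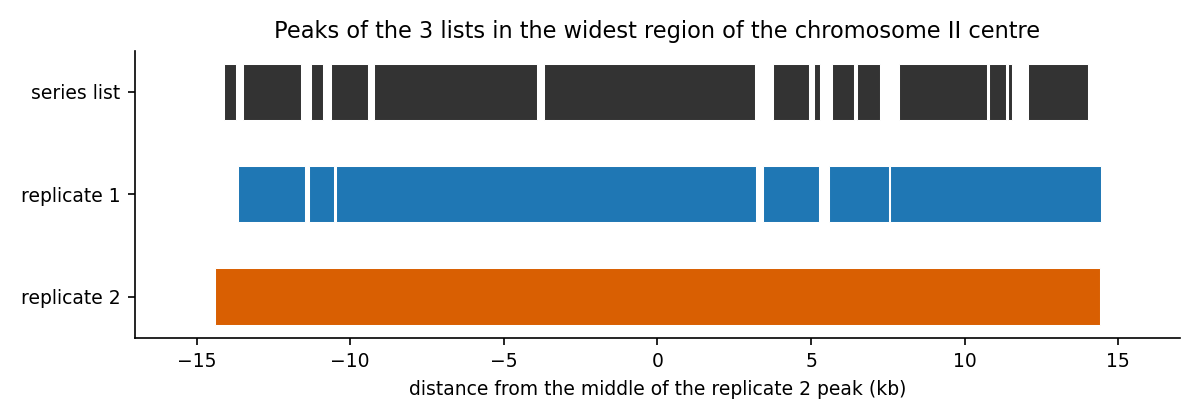
Peaks of the 3 lists in the region of the widest replicate 2 peak, drawn to scale against distance from its middle; each bar is 1 peak. Replicate 2 has 1 peak of 28826 bp where replicate 1 has 6 and the series list 14.

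Other broad regions were found in both replicates. The region from 10542602 to 10554571 was a peak of 11970 bp in replicate 2 and of 10916 bp in replicate 1, each with a score of 3100, and held 12 members that covered 69.9% of it. The one from 8124495 to 8134128 was 9634 bp in replicate 2 (score 3100) and 9090 bp in replicate 1 (score 2120), with 7 members. The replicate 2 peak from 5929611 to 5938299, of 8689 bp and score 3100, met 2 replicate 1 peaks that covered 82.4% of it. By contrast, the replicate 2 peak from 5328792 to 5339879, of 11088 bp, had 5 separate replicate 1 peaks, the widest 2303 bp, and 11 members. The replicate 1 peak from 7677075 to 7684828 was 7754 bp wide and scored 242, above the median of 205 for the replicate 1 list. A replicate 2 peak of 7249 bp with a score of 601 covered 77.6% of it. Its 5 series-list peaks covered 24.5% of it and scored at most 13.4. The other members of 4 kb or more, from 9618329 to 9622463 (4135 bp, score 87.4) and from 11617192 to 11621194 (4003 bp, score 148), each lay entirely within 1 peak in each replicate. So did the next widest member, from 6925943 to 6928926 (2984 bp, score 151).

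In the series list long gaps were rare in the centre, and both replicate lists had more of them. Between consecutive members the median gap was 1282 bp (438 to 5897 bp), against 2955 bp on the arms. Gaps of 50 kb or more numbered 11 and made up 9.07% of the window, against 32 such gaps making up 30.4% of the arms. Replicate 1 had 45 such gaps in the centre (46.1% of the window) and 55 on the arms (74.7%), and replicate 2 had 21 (19.6%) and 47 (50.2%). The longest gap was 72.0 kb in the centre and 145049 bp on the arms in the series list. It was 144360 against 374486 bp in replicate 1 and 92065 against 198829 bp in replicate 2. In every list a smaller share of the centre than of the arms lay in long gaps, as its higher density by itself would bring.

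The 5 longest gaps between members were 9807738 to 9879733 (72.0 kb), 6049817 to 6118440 (68.6 kb), 10106006 to 10167746 (61.7 kb), 8138241 to 8198165 (59.9 kb) and 5967032 to 6024958 (57.9 kb). The long empty stretch across the right edge, between 11979951 and 12039951, was not counted, since both bordering peaks had to be members. The gap at 8138241 began 4.11 kb to the right of the broad region that ended at 8134128, so one of the most widely occupied stretches and one of the emptiest lay side by side. None of the 11 gaps had a peak of either replicate lying wholly inside it, and 4 of them, including those at 10106006 and 8138241, were touched by no replicate peak. The first of these counts was nearly fixed in advance and gives the gaps no support. All 292 replicate 1 peaks and 531 of the 532 replicate 2 peaks in the centre met a series-list peak. Of the 22 members bordering the 11 gaps, 4 met both replicates, against 37.0% of all members and 19.6% of single members. Of the 7 stretches of the centre, numbered from the left, stretches 2, 5 and 6 held 3 of these gaps each and stretch 4 held 2.

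The longest gap of each replicate held low-scoring members. The longest replicate 1 gap, from 8267224 to 8411583, contained 10 members with a median score of 7.05 and a highest of 23.5, and 1 replicate 2 peak with a score of 362. The longest replicate 2 gap, from 10076732 to 10168796, contained 7 members with a median score of 6.19 and a highest of 16.3, and no replicate 1 peak.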

How the data were processed

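Peak lists in GFF3 format were used, 1 from each of the 2 ChIP samples and 1 of the whole series. The authors deposited 1 score per peak, whose scale is not given, with MACS (replicates) or MACS v2 (series list) written as the caller and WormBase WS220 as the build, per the file headers and columns. The submitters' processing notes name BWA and ce10 without roles. The control used, the thresholds and any pooling of reads are not given in the sources used here. Depth per sample is unknown, so intervals cover counting error over peaks only.

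Members and rules were chosen with earlier results of these data known. Overlap means at least 1 bp, with the same counts from bedtools 2.31.1. Bins of 70 kb began at the left edge of the window. Clusters joined peaks less than 2 kb apart, end to start, and long gaps were 50 kb or more. Wide peaks were 1 kb or more in the series list and 4 kb or more in the replicate lists. Named regions were the 10 best-scoring members met in both replicates, the 5 fullest and 5 emptiest bins, the 5 widest peaks of each list, the 5 largest clusters and the 5 longest gaps, with ties going to the smaller coordinate, and others were named after their values were seen. Alternatives were other overlap criteria, bin sizes, distances, score thresholds and each replicate's own list.

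Intervals are 95% and exact (Poisson, Clopper-Pearson or conditional binomial), from scipy 1.17.1 with numpy 2.4.6 and pandas 2.3.3 in Python 3.11.15. Centre and arms were also compared within libraries by an exact paired permutation test, added after seeing the data. Cluster, gap and overlap code was tested on simulated data with known answers. The gene table used for names is on another build than the peaks, so no gene or sequence was assigned.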

Additional observations from a re-analysis of the deposited data

How the results depend on the processing

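Over 10 results and 34 alternatives, 13 alternatives stayed within the interval of the reported value, or within 1.5 times it for a count, and 21 moved it. None turned the direction of the centre to arms ratio. That ratio of 2.03 became 2.25 for covered bases, 1.69 in the better-scoring 50% of the series list, 1.52 with peaks less than 2 kb apart merged and 1.15 in the best-scoring 10%, the last chosen after seeing the data. Each replicate's own list gave 1.65 to 1.80. The 1274 members became 598 in the better-scoring 50% and 550 after merging. The share met in both replicates, 37.0%, became 3.38% under 50% reciprocal overlap, a criterion that a narrow peak in a wide one misses, and 57.4% in the better-scoring 50%. With 1 replicate left out, the share met in the other was 38.1 to 73.6%. The variance to mean quotient of bin counts, 2.97, was 0.57 after merging, an alternative also added after seeing the data, and 1.36 to 1.47 in the replicate lists, whose counts are lower. The 11 long gaps became 36 from 30 kb, 24 in the better-scoring 50% and 21 to 45 in the replicate lists. Wide members fell from 72 to 33 at 1.5 kb. The median score of 14.9 was 46.2 for members met in both replicates. The replicate score correlation of 0.74 was 0.67 without tied scores. No paired analysis was possible because no input peak list was analysed here, so ChIP and input samples of one number could not be compared. Centre and arms were paired within each ChIP library.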
